A study of Mus musculus with 7 samples.

Results

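RNA of 10 genes of glucose uptake and glycolysis was compared in whole abdominal aortas of mice given ITA-LNP or a control LNP. The genes are Slc2a1, Hk1, Hk2, Pfkl, Aldoa, Gapdh, Pgk1, Eno1, Pkm and Ldha. They were chosen by name as the glucose transporter and the enzymes that lead to lactate, and all 10 were found among the 32544 genes of the deposited table. LNP commonly stands for lipid nanoparticle, and the series title gives itaconate for ITA. All mice were male, lacked apolipoprotein E (Apoe-/-) and ate a high-fat diet for 12 weeks. The tested mice received 50 mg/kg ITA-LNP into the vein 1 time a week, and the others received the control LNP in the same way. The titles write NP where the protocol writes LNP, and the age of the mice is not stated in the labels. The groups held 3 libraries with ITA-LNP and 4 with control-LNP, from 3′ mRNA sequencing. Each transcript then gives reads near its 3′ end, so the level of a gene does not scale with its length. Levels are given in CPM, reads per 1000000 reads assigned to genes, and can be compared between genes. Whether each library stands for its own mouse is not stated in the labels, so p-values rest on the spread among these libraries, which may be partly technical.

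Glycolysis splits glucose into pyruvate in the cytosol and yields ATP and NADH. Glucose enters through facilitative transporters of the SLC2A (GLUT) family, hexokinase traps it as glucose 6-phosphate, and phosphofructokinase makes the committed step. Lactate dehydrogenase turns pyruvate into lactate and regenerates NAD+. Most of these genes are targets of the hypoxia-inducible factors, and macrophages and smooth muscle cells of plaques are known to use the pathway. Itaconate is a metabolite that activated macrophages make from the TCA cycle, and it has been described as an inhibitor of glycolytic enzymes at the protein level, which RNA does not measure.

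The libraries held 6375381 to 7281721 reads with ITA-LNP and 5077073 to 6688872 reads with control-LNP. A gene with 0 reads may still be present below a limit of 3 reads, which is 0.412 to 0.591 CPM by library. Such limits and the Wilson intervals of shares below cover counting error only. The intervals of log2 fold changes rest on the spread among libraries. The groups differed in the cell types their RNA came from. The summed smooth muscle markers lay at 17078 to 20840 CPM with ITA-LNP and at 155.5 to 461 CPM in the libraries labelled control-LNP. The fibroblast markers summed to 13784 to 16085 and 100.4 to 247 CPM, and the white adipocyte markers to 5759 to 7188 and 49.9 to 329 CPM. Nearly all of the adipocyte sum was Fabp4, which endothelium also makes, at 5589 to 7040 and 49.0 to 328 CPM. Plin4 was at 129 to 143 CPM with ITA-LNP and at most 0.748 CPM with control-LNP, Adipoq reached at most 15.7 CPM and Plin1 at most 2.17 CPM in any library. Blood cell markers stood the other way. The platelet markers summed to 87.4 to 170 CPM with ITA-LNP and 4789 to 6216 CPM with control-LNP, the erythroid ones to 2550 to 4229 and 12389 to 44806 CPM, and the neutrophil ones to 45.7 to 85.5 and 916.5 to 25998 CPM. The B cell markers summed to 5.22 to 25.3 CPM with ITA-LNP and 724 to 2079 CPM with control-LNP. For the T cell markers the sums were 10.2 to 44.9 and 156 to 604 CPM. The macrophage sums overlapped, at 225.5 to 317 and 222 to 518 CPM, but their genes split. Of 6 tested, C1qa, C1qb and Mrc1 were higher and Csf1r was lower, beside 15.5% of all genes called. The same 4 had groups that did not overlap, as 29.9% of all genes tested had. C1qb, a complement gene of tissue macrophages, was at 49.7 to 72.8 CPM with ITA-LNP and 0 to 6.50 CPM with control-LNP, and Csf1r, the receptor of monocytes and macrophages, at 29.0 to 58.6 and 150.1 to 477 CPM. Adipoq and Cidec were at 0 in the control-LNP libraries, and Lep was at 0 in both groups. The control-LNP libraries thus held the defining smooth muscle RNA of an aorta at a low level. In bulk tissue, fewer cells of a type and less RNA per cell cannot be told apart, and the part of this difference in the results below was not tested. Control-LNP replicate 2, which had the highest neutrophil sum, also stood apart from its group. It had 10846 genes detected, against 14232 to 15333 in the other control-LNP libraries. Over the 10 genes its log2 levels correlated with those of the other control-LNP libraries at 0.484 to 0.616, and the correlation among those 3 was 0.942 to 0.979. The main results are therefore given with and without it. Leaving it out was decided after the values were seen.

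None of the 10 genes changed at an adjusted p under 0.05 when all 7 libraries were used (limma, Benjamini-Hochberg over 12636 genes), while 15.5% of all genes tested did. All 10 passed the filter on low values. At an unadjusted p under 0.05, Pgk1 and Pkm were lower with ITA-LNP, 2 of 10 genes against 29.3% of all genes tested, and limma-voom on the reads called 0 of the 10 genes against 14.0% of all genes. The median log2 fold change of the 10 genes was 0.19, beside 0.15 over all genes tested. Only Pkm had groups that did not overlap, which 29.9% of all genes tested had. Without control-LNP replicate 2, 4 of the 10 genes passed, and 31.4% of all genes tested did. Slc2a1, Gapdh and Ldha were higher, beside 15.4% of all genes, and Pkm was lower, beside 16.0%. The groups then did not overlap for Slc2a1, Hk1, Gapdh, Pkm and Ldha, 5 of 10 genes against 45.6% of all genes tested. A count of 4 in 10 is close to that share of all genes. Other ways to treat the same libraries called other subsets. Centring each library on its median without replicate 2 called Slc2a1, Hk1, Pkm and Ldha (33.5% of all genes), voom without replicate 2 called these and Gapdh (29.2%), and library weights with all 7 libraries called Slc2a1, Hk1, Pkm and Ldha (34.4%).

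**Figure D1:**
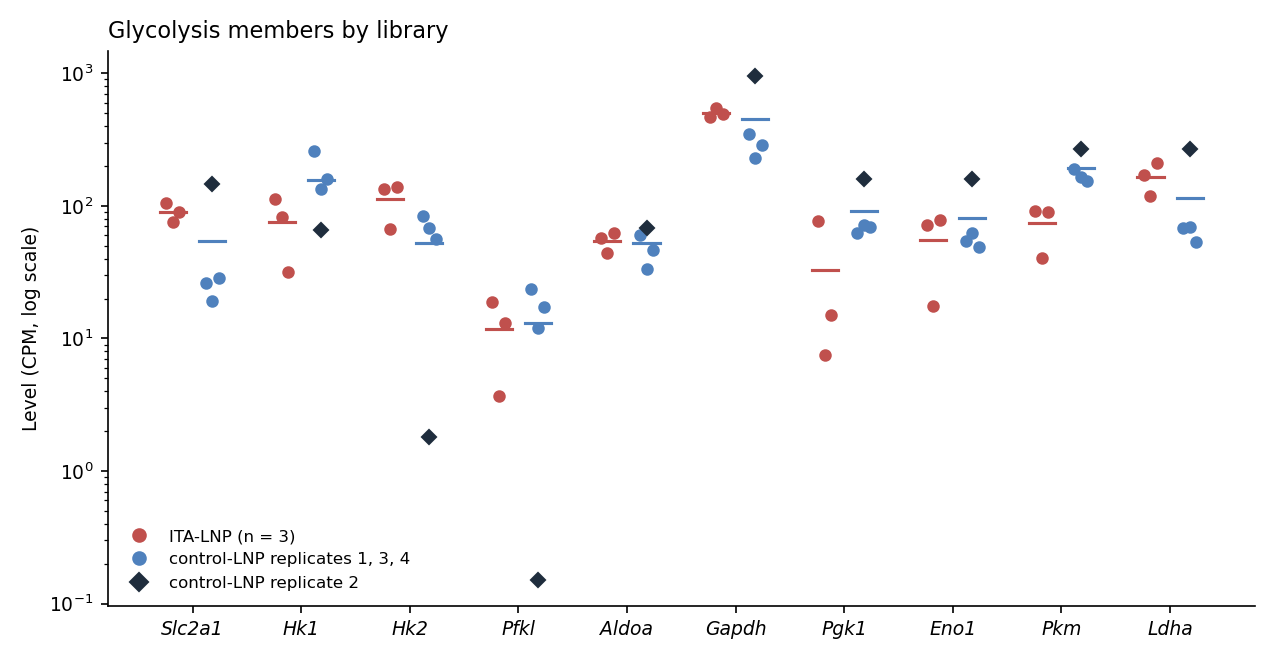
CPM on a log axis of each of the 10 genes in every library, ITA-LNP left of control-LNP, with control-LNP replicate 2 marked apart. Replicate 2 lies at 956 CPM for Gapdh and 269 CPM for Ldha, above every other library, and at 0.150 CPM for Pfkl, below every other library.

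**Figure D2:**
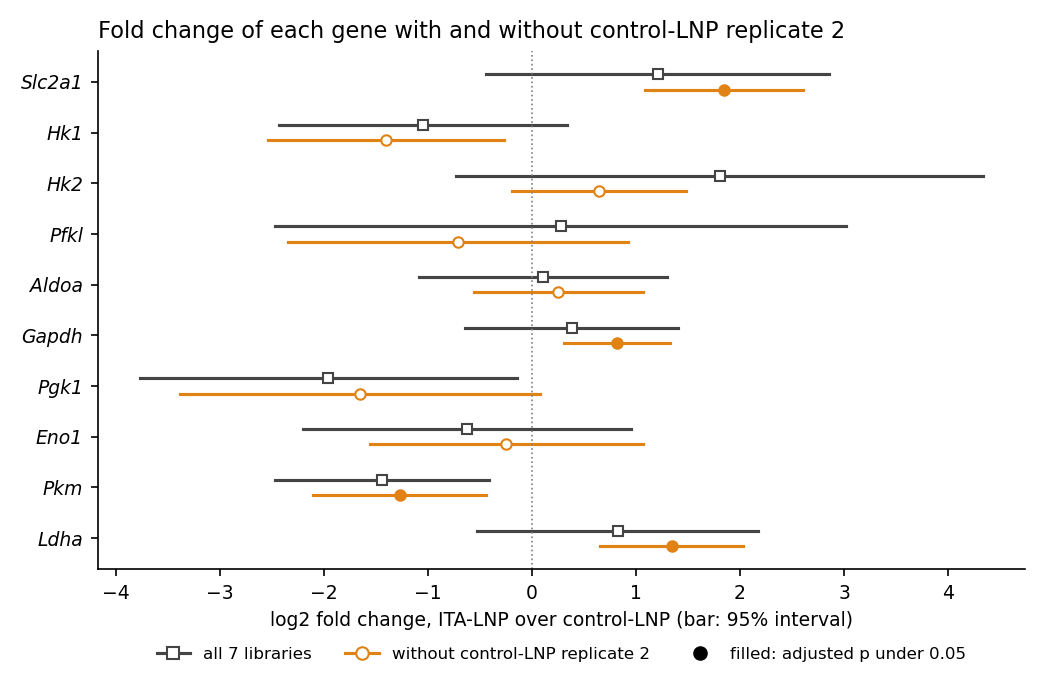
Log2 fold change of ITA-LNP over control-LNP with its 95% interval for each gene, with all 7 libraries and without control-LNP replicate 2. Pkm and Pgk1 have intervals below 0 with all 7 libraries, and Slc2a1, Gapdh and Ldha have intervals above 0 once replicate 2 is left out.

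The DNA before the start of some of these genes carries the core of the hypoxia response element, to which hypoxia-inducible factors bind. The 250 bases before the start are shown for Slc2a1, Hk2, Ldha and Pkm, which were picked with their values known. They were read from RefSeq on GRCm38.p6, 5′ to 3′ on the strand of the gene. Capitals mark ACGTG or its reverse complement CACGT, and CACGTG, the E-box that MYC binds, contains both. The windows are chr4:119108495-119108744 on the plus strand for Slc2a1, chr6:82774455-82774704 on the minus strand for Hk2, chr7:46845554-46845803 on the plus strand for Ldha and chr9:59656326-59656575 on the plus strand for Pkm.
Slc2a1: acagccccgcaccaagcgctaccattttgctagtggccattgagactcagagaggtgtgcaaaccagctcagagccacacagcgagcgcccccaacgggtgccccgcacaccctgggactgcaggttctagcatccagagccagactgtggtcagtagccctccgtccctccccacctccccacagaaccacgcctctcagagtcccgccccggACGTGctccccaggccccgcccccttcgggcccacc
Hk2: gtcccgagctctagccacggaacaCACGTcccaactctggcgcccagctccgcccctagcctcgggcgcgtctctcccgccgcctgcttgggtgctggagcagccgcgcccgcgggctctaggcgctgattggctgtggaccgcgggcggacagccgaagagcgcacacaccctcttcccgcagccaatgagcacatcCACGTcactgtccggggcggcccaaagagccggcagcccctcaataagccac
Ldha: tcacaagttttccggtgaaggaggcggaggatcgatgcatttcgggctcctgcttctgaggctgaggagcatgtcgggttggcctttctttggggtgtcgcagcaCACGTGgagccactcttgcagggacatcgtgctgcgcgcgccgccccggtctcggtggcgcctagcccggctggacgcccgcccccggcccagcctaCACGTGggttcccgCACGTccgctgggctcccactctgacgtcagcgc
Pkm: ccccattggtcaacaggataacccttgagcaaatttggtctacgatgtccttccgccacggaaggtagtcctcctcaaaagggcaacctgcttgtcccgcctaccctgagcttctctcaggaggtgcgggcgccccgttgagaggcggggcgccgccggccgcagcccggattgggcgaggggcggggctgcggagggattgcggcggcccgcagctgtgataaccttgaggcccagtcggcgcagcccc
Slc2a1 has 1 match, Hk2 has 2, Ldha has 3, of which 2 are CACGTG, and Pkm has 0 in this window. For Ldha and Pkm, RefSeq lists 2 starts each, and the one listed first is shown. The gene spans given below came from GENCODE, and their starts differ. The Ldha window lies inside the Ldha span, and the Slc2a1 and Pkm windows end inside theirs. The window of the other Pkm start has 1 match, and that of the other Ldha start has 0. Among the genes not shown, Gapdh, which was higher without control-LNP replicate 2, has 0 matches. Pgk1, whose log2 fold change was negative, has 2. Aldoa has 1 match at 2 of its 3 starts, and Hk1, Pfkl and Eno1 have 0. On either strand ACGTG was found in 7 of the 17 windows of the 10 genes (41.2%), which belong to 6 genes, and in 5444 of 32851 windows of all genes (16.6%). CACGTG was in 1 of the 17 windows, against 6.02% of all windows. A match is a description of the letters and not a measured binding site.

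Slc2a1 (chromosome 4, 119108711 to 119137983 on mm10) encodes GLUT1, the transporter of basal glucose uptake in most cells. It had 105, 75.9 and 90.2 CPM in the ITA-LNP libraries and 26.2, 146, 19.2 and 28.4 CPM in control-LNP replicates 1 to 4. The ITA-LNP libraries lay close together and above 3 of the 4 control-LNP libraries, but replicate 2 was the highest of all 7. With all 7 libraries its log2 fold change came to 1.21 ± 0.73 (adjusted p = 0.320 by limma, ± SE), and without replicate 2 it was 1.84 ± 0.33 (adjusted p = 0.00415), where Slc2a1 rose. The means were then 90.5 ± 14.8 CPM with ITA-LNP and 24.6 ± 4.77 CPM with control-LNP (SD, n = 3 each). Replicate 2 stood at 5.92 times the mean of the other control-LNP libraries. With all 7 libraries centred on their medians the log2 fold change was 0.080, and without replicate 2 it was 1.61 when centred (adjusted p = 0.00534).

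Slc2a3 encodes GLUT3, a transporter of high affinity found in neurons, platelets and leukocytes. It had 18.8, 0.737 and 2.75 CPM with ITA-LNP and 154, 137, 170.2 and 177 CPM with control-LNP. The 4 control-LNP libraries, replicate 2 among them, were alike and lay far above all ITA-LNP libraries. Slc2a3 fell by 4.99 ± 0.84 on the log2 scale (SE; adjusted p = 0.0032, limma). Without replicate 2 it fell by 5.06 ± 0.83 (adjusted p = 0.0028). It fell beside the platelet, neutrophil, B cell and T cell marker sums, and their part in it was not tested. The 2 transporters together summed to 124, 76.6 and 93.0 CPM with ITA-LNP and to 181, 283, 189 and 206 CPM with control-LNP. Slc2a1 thus held 84.8% (95% Wilson interval 82.2 to 87.2), 99.0% (97.8 to 99.6) and 97.0% (95.5 to 98.1) of their reads in the ITA-LNP libraries. It held 14.5% (12.4 to 16.9), 51.5% (49.2 to 53.7), 10.2% (8.42 to 12.2) and 13.8% (12.0 to 15.8) in control-LNP replicates 1 to 4. The groups did not overlap with or without replicate 2. The mean share was 93.6% ± 7.68 with ITA-LNP and 22.5% ± 19.4 with control-LNP (SD, n = 3 and 4; exact two-sided permutation p = 0.0286, the smallest that 35 splits allow). Adjusted over the 6 shares computed, p was 0.0857, so the share did not pass.

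Apart from Slc2a1 and Slc2a3, the listed SLC2A carriers had group means of at most 15.5 CPM, which Slc2a9 had with control-LNP. Slc2a4, which encodes the insulin-responsive GLUT4 of muscle and fat, had 8.47 and 21.5 CPM and 0 reads in the ITA-LNP libraries and 0 reads in every control-LNP library. Slc16a7, which encodes the monocarboxylate transporter MCT2, averaged 29.9 ± 14.4 CPM with ITA-LNP and 6.17 ± 4.64 CPM with control-LNP (SD, n = 3 and 4; adjusted p = 0.154, limma). Slc2a6, a lysosomal member of the family, averaged 0.0458 CPM with ITA-LNP and 4.46 CPM with control-LNP (adjusted p = 0.184). Of 9 tested genes among 12 other glucose and lactate transporters, 0 were higher and 1, Slc2a3, was lower (limma, and voom), near the 15.5% called over all genes, with a median log2 fold change of -0.48. Without replicate 2, Bsg was higher, and Slc2a3, Slc2a6 and Slc2a9 were lower, beside 15.4% higher and 16.0% lower over all genes. Bsg encodes basigin, which carries lactate transporters to the membrane, and with all 7 libraries its adjusted p was 0.227 by limma.

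Hk1 (chromosome 10, 62268855 to 62379908) encodes the constitutive hexokinase, the main one of red blood cells and brain. It had 112, 83.1 and 31.9 CPM with ITA-LNP and 262, 66.1, 134 and 161 CPM with control-LNP. Replicate 2 fell among the ITA-LNP libraries, and the other 3 control-LNP libraries lay above all of them. Its log2 fold change came to -1.05 ± 0.62 (adjusted p = 0.303 by limma, ± SE), and -1.40 ± 0.49 without replicate 2 (adjusted p = 0.0629). It was -2.18 with all 7 libraries centred on their medians and -0.52 without the third ITA-LNP library. Hk2 (chromosome 6, 82725025 to 82774454) encodes the inducible hexokinase of muscle, fat and activated macrophages. It had 134, 66.6 and 139 CPM with ITA-LNP and 83.9, 1.79, 67.9 and 55.9 CPM with control-LNP. The second ITA-LNP library sat inside the range of the control-LNP libraries, and replicate 2 had only 12 reads. Over all 7 libraries the log2 fold change of Hk2 was 1.80 ± 1.13 (adjusted p = 0.335, limma), and 0.65 ± 0.36 without replicate 2 (adjusted p = 0.213), with a 95% interval of -0.19 to 1.48.

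Within a library, the balance of the 2 hexokinases does not depend on the total of glycolysis RNA. Hk2 held 54.4% (95% Wilson interval 51.9 to 56.9), 44.5% (41.5 to 47.6) and 81.4% (79.1 to 83.4) of the Hk1 and Hk2 reads in the ITA-LNP libraries. It held 24.3% (22.3 to 26.3), 2.64% (1.52 to 4.56), 33.6% (30.8 to 36.5) and 25.8% (23.5 to 28.2) in control-LNP replicates 1 to 4. Every ITA-LNP library was above every control-LNP library. The mean share was 60.1% ± 19.1 with ITA-LNP and 21.6% ± 13.3 with control-LNP (SD, n = 3 and 4), and 27.9% ± 4.98 with control-LNP without replicate 2. The exact two-sided permutation p was 0.0286, the smallest possible, and 0.0857 after adjustment over 6 shares, so it did not pass either. The erythroid marker sum was lower in every ITA-LNP than in every control-LNP library. In control-LNP replicates 1 to 4 it was 44806, 21124, 12389 and 13092 CPM. The lowest Hk2 share, in replicate 2, was thus not in the library with the highest erythroid sum. The part of erythroid RNA in this share was not tested. Hk3, the hexokinase of myeloid cells, was at 0 reads with ITA-LNP and at 2.36, 0, 4.04 and 0.984 CPM with control-LNP, too low to pass the filter.

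**Figure D3:**
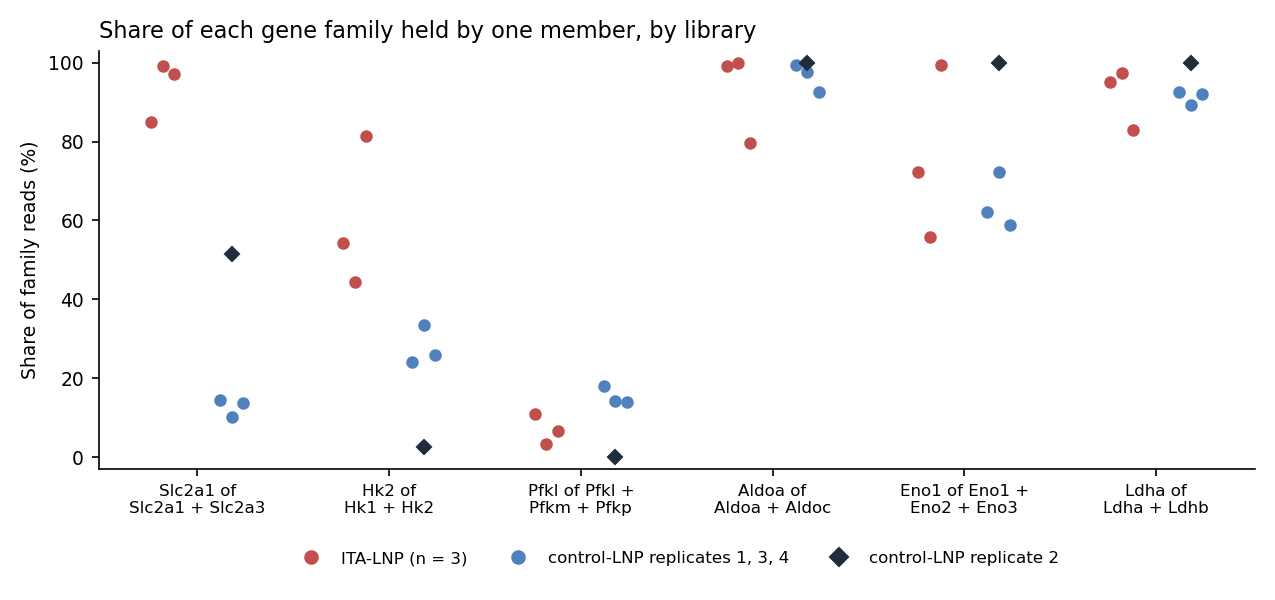
Share in percent that each of 6 genes holds of the reads of its isoenzyme family, per library, ITA-LNP left of control-LNP. The Slc2a1 and Hk2 shares of the 3 ITA-LNP libraries all lie above those of the 4 control-LNP libraries, and the other 4 shares overlap. For Pfkl the overlap comes only from control-LNP replicate 2.

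Pfkl (chromosome 10, 77986947 to 78010083) encodes the liver-type subunit of phosphofructokinase. It had the lowest mean of the 10 genes in both groups, with 18.8, 3.68 and 13.0 CPM with ITA-LNP and 23.4, 0.150, 11.9 and 17.2 CPM with control-LNP. The groups overlapped, and replicate 2 held 1 read. The sign of its log2 fold change depended on that library, at 0.28 ± 1.22 with it and -0.71 ± 0.71 without it (SE; adjusted p = 0.920 and 0.482, limma). Most phosphofructokinase reads came from Pfkp, the platelet-type subunit, at 144, 102 and 162 CPM with ITA-LNP and 104, 146, 69.4 and 106 CPM with control-LNP. Pfkl held 3.47% to 11.0% of the reads of the 3 subunit genes with ITA-LNP and 0.103% to 18.0% with control-LNP (exact permutation p = 0.400, adjusted p = 0.800). These shares overlapped only through replicate 2. Control-LNP replicates 1, 3 and 4 held 18.0%, 14.3% and 14.0%, above every ITA-LNP library. Without replicate 2 the exact permutation p was 0.1, the smallest possible there, and 0.200 after adjustment. Pfkm, the muscle-type subunit, averaged 8.80 ± 8.01 CPM with ITA-LNP and 1.22 ± 1.47 CPM with control-LNP (SD, n = 3 and 4; adjusted p = 0.249, limma).

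Aldoa (chromosome 7, 126795234 to 126800751) encodes the aldolase of muscle and most other tissues. With all 7 libraries it had the log2 fold change nearest to 0 of the 10 genes. It had 57.1, 44.4 and 63.0 CPM with ITA-LNP and 60.5, 68.3, 33.3 and 46.2 CPM with control-LNP. The groups overlapped throughout, with a log2 fold change of 0.11 ± 0.53 (SE; adjusted p = 0.929, limma) and a 95% interval of -1.08 to 1.30. Without replicate 2 the interval was -0.56 to 1.06. The annotation holds a second Aldoa record next to the first, and the table has 1 row for both. Aldoc, the brain-type aldolase, reached 16.1 CPM in the third ITA-LNP library and at most 3.77 CPM in any other.

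Gapdh (chromosome 6, 125161715 to 125166467) encodes the dehydrogenase that makes the first NADH and was the most abundant of the 10 genes in every library. It had 470.2, 548 and 495 CPM with ITA-LNP and 351, 956, 229 and 289 CPM with control-LNP. The ITA-LNP libraries lay within a narrow band, above 3 control-LNP libraries and below replicate 2. For Gapdh limma gave a log2 fold change of 0.38 ± 0.46 (adjusted p = 0.649), and without replicate 2 Gapdh rose by 0.82 ± 0.22 (adjusted p = 0.0239). Replicate 2 was at 3.30 times the mean of the other control-LNP libraries. Centring the same libraries on their medians left 0.58 (adjusted p = 0.0538), just short of the threshold, and with all 7 libraries centred in this way the log2 fold change was -0.75. The median of all genes then shifted by over 0.1, from 0.15 in the uncentred values to -0.98. Gapdh has 143 gene records with at least 95% identity over 100 or more of its last 500 bases, most of them pseudogenes. Of these, 135 were in the table and 10 had reads. Peli2, which matches over 173 bases, had 892, 436 and 1494 reads with ITA-LNP and 12, 9, 31 and 47 reads with control-LNP. The other genes summed to 10 to 201 reads with ITA-LNP and 1 to 135 reads with control-LNP, beside 2998 to 3718 and 1189 to 6395 Gapdh reads.

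Pgk1 (chromosome X, 106187100 to 106203699) encodes phosphoglycerate kinase, which makes the first ATP of glycolysis. It had 76.4, 7.52 and 15.1 CPM with ITA-LNP and 62.6, 160.3, 72.3 and 69.4 CPM with control-LNP. The first ITA-LNP library was at the control-LNP level, and the other 2 were below every control-LNP library. Limma put the log2 fold change at -1.96 ± 0.81 (SE; unadjusted p = 0.0370, adjusted p = 0.142), and -1.65 ± 0.75 without replicate 2 (adjusted p = 0.134). These low values went with reads on a copy. Pgk1-rs7 is a processed pseudogene on chromosome 12 (10898986 to 10900240, minus strand), and 354 of the last 500 bases of a Pgk1 transcript match it at 100% identity. It had 0, 425 and 279 reads in ITA-LNP replicates 1 to 3 and 0 reads in all 4 control-LNP libraries. The 2 libraries with low Pgk1 were the 2 with reads on the copy. Summed over both, the level was 76.4, 70.1 and 53.4 CPM with ITA-LNP, against 62.6, 160.3, 72.3 and 69.4 CPM with control-LNP. The ITA-LNP libraries then overlapped the control-LNP ones. The log2 fold change of the sum was -0.35 ± 0.51 (adjusted p = 0.720, limma), and -0.04 ± 0.28 without replicate 2 (adjusted p = 0.923). The Pgk1 value by itself is uncertain for this reason, and whether the reads came from the gene or the copy was not tested.

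**Figure D4:**
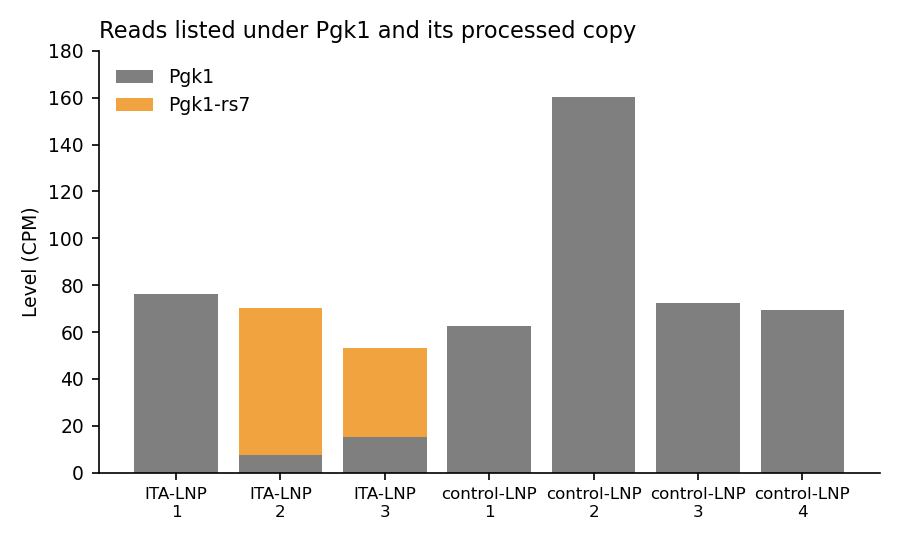
CPM of Pgk1 and of its pseudogene Pgk1-rs7 stacked for each library, ITA-LNP left of control-LNP. ITA-LNP replicates 2 and 3 hold 62.6 and 38.3 CPM on the copy, which brings their sums to 70.1 and 53.4 CPM, next to 62.6 to 72.3 CPM in control-LNP replicates 1, 3 and 4.

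Eno1 (chromosome 4, 150236721 to 150248879) encodes the enolase of most tissues. It had 71.5, 17.5 and 78.0 CPM with ITA-LNP and 54.6, 159, 62.3 and 49.2 CPM with control-LNP. The second ITA-LNP library was the lowest of all and replicate 2 the highest, with the others between. Limma gave Eno1 a log2 fold change of -0.62 ± 0.70 (SE; adjusted p = 0.625), and -0.24 ± 0.57 without replicate 2 (adjusted p = 0.776). Of the enolase reads, Eno1 held 55.9% to 99.5% with ITA-LNP and 58.8% to 99.9% with control-LNP (exact permutation p = 0.914, adjusted p = 0.914). Most of the rest came from Eno3, the muscle enolase, which was at 18.4, 13.7 and 0 CPM with ITA-LNP and 33.1, 0, 23.8 and 33.9 CPM with control-LNP.

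Pkm (chromosome 9, 59656368 to 59679375) encodes pyruvate kinase, which makes the last ATP of glycolysis. Its PKM1 and PKM2 splice forms share the 3′ end and were not separated here. It had 91.6, 40.5 and 90.0 CPM with ITA-LNP and 191, 269, 164 and 154 CPM with control-LNP. Every ITA-LNP library lay below every control-LNP library, with and without replicate 2. The means were 74.0 ± 29.0 CPM with ITA-LNP and 195 ± 51.8 CPM with control-LNP (SD, n = 3 and 4), a ratio of 0.381. Its log2 fold change of -1.44 ± 0.46 (SE; unadjusted p = 0.0112, adjusted p = 0.0656, limma) did not pass. Without replicate 2, Pkm fell by 1.27 ± 0.36 (adjusted p = 0.0287). The platelet, neutrophil, B cell and T cell marker sums were lower in the same libraries, and their part was not tested.

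Ldha (chromosome 7, 46841475 to 46855627) encodes the lactate dehydrogenase subunit that favours the making of lactate. It had 170.03, 118 and 211 CPM with ITA-LNP and 68.1, 269, 69.6 and 53.5 CPM with control-LNP. The pattern was that of Slc2a1 and Gapdh, with the ITA-LNP libraries above 3 control-LNP libraries and below replicate 2. With replicate 2 kept, limma gave 0.82 ± 0.60 on the log2 scale (adjusted p = 0.419), and without replicate 2 Ldha rose by 1.34 ± 0.30 (adjusted p = 0.0106). The means were then 167 ± 46.4 CPM with ITA-LNP and 63.7 ± 8.94 CPM with control-LNP (SD, n = 3 each). Centring all 7 libraries on their medians turned its sign, to -0.30. Ldha held 82.9% to 97.5% of the Ldha and Ldhb reads with ITA-LNP and 89.2% to 99.9% with control-LNP (exact permutation p = 0.800, adjusted p = 0.914). Ldhb, the heart-type subunit, reached 43.7 CPM in the third ITA-LNP library and at most 8.63 CPM in any other. Across the 6 shares the families had 177 to 1893 reads a library, and the widest 95% Wilson interval spanned 13.2 percentage points.

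Within the pathway, control-LNP replicate 2 was high for some steps and nearly empty for their neighbours. It had 956 CPM of Gapdh but 1.05 CPM (7 reads) of Tpi1, triose phosphate isomerase, and 0.299 CPM (2 reads) of Pgam1, phosphoglycerate mutase. Tpi1 had 108, 241 and 146 CPM with ITA-LNP and 68.0, 46.0 and 63.6 CPM in control-LNP replicates 1, 3 and 4. Pgam1 had 71.2, 112 and 82.4 CPM with ITA-LNP and 25.4, 21.3 and 18.5 CPM in those 3 libraries. For both genes every ITA-LNP library was above every control-LNP library. With all 7 libraries the log2 fold changes were 2.62 ± 1.17 for Tpi1 and 2.99 ± 1.08 for Pgam1 (SE; adjusted p = 0.171 and 0.101, limma). Without replicate 2, Tpi1 rose by 1.40 ± 0.35 (adjusted p = 0.0185) and Pgam1 by 1.96 ± 0.34 (adjusted p = 0.0037). Gpi1, which isomerises glucose 6-phosphate, differed little, at 114, 192 and 193 CPM with ITA-LNP and 183, 142, 159 and 139 CPM with control-LNP (log2 fold change 0.06 ± 0.38, adjusted p = 0.943, limma). Bpgm makes 2,3-bisphosphoglycerate in red blood cells. It had 88.2, 115 and 39.4 CPM with ITA-LNP and 538, 482, 73.7 and 70.4 CPM with control-LNP, where replicates 1 and 2 were the high ones. Of 20 other glycolysis genes, 14 had reads and 10 were tested, and 0 were called in either direction with all 7 libraries (limma, and voom). Over all genes limma called 15.5% and voom 14.0%. The median log2 fold change of the list was 0.52. Of these 10, Pgam1 alone had an unadjusted p under 0.05, beside 29.3% of all genes. Without replicate 2, 2 of 9 were higher and 0 were lower, beside 15.4% and 16.0% of all genes.

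**Figure D5:**
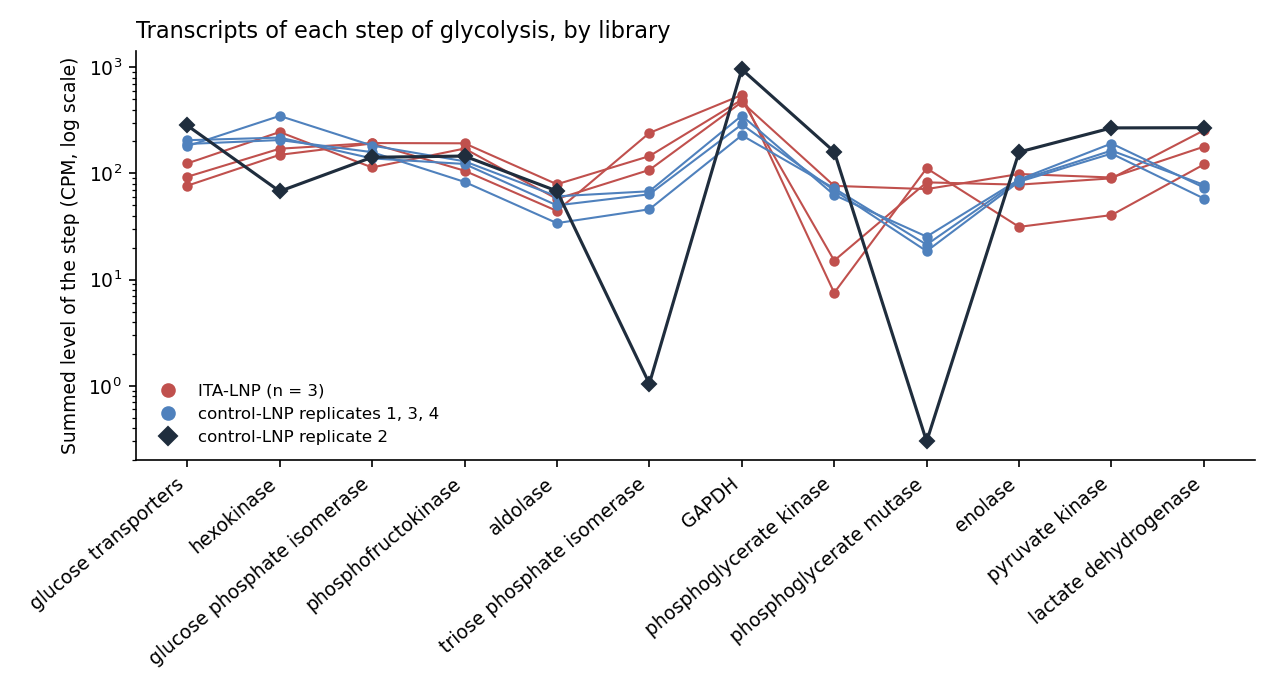
Summed CPM on a log axis of the genes described here for each step of glycolysis, from glucose transport to lactate, with a line for each library of the ITA-LNP and control-LNP groups. Control-LNP replicate 2 is at 1.05 CPM for triose phosphate isomerase and 0.299 CPM for phosphoglycerate mutase, and is the highest library for GAPDH, phosphoglycerate kinase, enolase, pyruvate kinase and lactate dehydrogenase.

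Summed over the 10 genes, the ITA-LNP libraries had 1307, 1006 and 1226 CPM and the control-LNP libraries 1184, 2095, 864 and 924 CPM. The groups overlapped, and replicate 2 was the highest. The order of the 10 genes differed between the groups. With ITA-LNP, Gapdh was followed by Ldha, Hk2, Slc2a1, Hk1, Pkm, Eno1, Aldoa, Pgk1 and Pfkl. Gapdh was above Ldha and Ldha above Hk2 in 3 of 3 libraries, while Slc2a1 was above Hk1 in 1 of 3, so these 2 do not differ beyond their spread. With control-LNP, Gapdh was followed by Pkm, Hk1, Ldha, Pgk1, Eno1, Slc2a1, Hk2, Aldoa and Pfkl. Pkm was above Hk1 in 2 of 4 libraries and Slc2a1 above Hk2 in 1 of 4, so these pairs could not be ordered. Gapdh was above Pkm, Pgk1 above Eno1, Eno1 above Slc2a1 and Aldoa above Pfkl in 4 of 4 libraries. Without replicate 2, Slc2a1 was the ninth of the 10 genes and below Aldoa in 3 of 3 libraries. The genes whose log2 levels followed the mean of the 10 most closely were Ptdss2, Fkbp15, Ncoa6, H2-T23 and Sept9, with Pearson r of 0.979, 0.951, 0.931, 0.931 and 0.930 over 7 libraries. This is a description over libraries of different cell content. The mean log2 level of the 10 genes was lowest in the second ITA-LNP library, at 5.51, and lay between 5.99 and 6.61 in the other libraries.

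The HIF and glucose sensing regulators held 1 call among 14 tested genes, which was upward, beside 10.3% upward over all genes (limma). Their median log2 fold change was 0.24. Epas1, which encodes the hypoxia-inducible factor HIF-2α, abundant in endothelium, had 377, 412 and 234 CPM with ITA-LNP and 6.50, 1.94, 3.85 and 4.59 CPM with control-LNP. It rose by 6.07 ± 0.65 on the log2 scale (SE; adjusted p = 0.0003, limma). The endothelial markers Egfl7, Cdh5 and Kdr rose in the same libraries, by 7.19, 5.40 and 4.80 on the log2 scale (adjusted p = 0.0003, 0.0021 and 0.0035, limma), and their part was not tested. Pecam1 and Vwf, which platelets also hold, were at 0.29 and -0.55 and were not called. Tie1, at most 4.71 CPM in any library, was at 0.38 and was not called either (adjusted p = 0.812, limma). The sum of the 6 markers, 686 to 859 CPM with ITA-LNP and 220 to 452 CPM with control-LNP, thus differed less. Hif1a, the oxygen-regulated subunit of HIF-1, had 222, 117 and 88.9 CPM with ITA-LNP and 52.6, 90.6, 31.0 and 43.1 CPM with control-LNP. Its groups overlapped only through replicate 2 (log2 fold change 1.38 ± 0.56, adjusted p = 0.138, limma). Egln1, an oxygen sensor that marks HIF proteins for decay, and Hif1a passed without replicate 2, for 3 of 14 higher and 0 lower, beside 15.4% and 16.0% of all genes. Txnip, a brake on glucose uptake, averaged 838 ± 198 CPM with ITA-LNP and 545 ± 101 CPM with control-LNP (SD, n = 3 and 4; adjusted p = 0.163, limma).

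Among 12 HIF targets outside glycolysis, 10 were tested. By limma 2 were higher and 0 were lower, and voom called the same 2 higher and Bnip3l lower (log2 fold change -1.04, adjusted p = 0.0427). The median log2 fold change was 1.37. Over all genes limma called 10.3% higher and 5.15% lower. Plod2, a collagen lysyl hydroxylase, had 151, 124 and 171 CPM with ITA-LNP and 3.55, 1.05, 1.15 and 1.31 CPM with control-LNP, and rose by 5.83 ± 0.76 (SE; adjusted p = 0.0010, limma). Vegfa, the endothelial growth factor, had 44.9, 10.5 and 34.5 CPM with ITA-LNP and 1.18, 0.299, 0.769 and 0.328 CPM with control-LNP, and rose by 4.05 ± 0.87 (adjusted p = 0.0110). Both are made by fibroblasts and smooth muscle, whose markers rose in the same libraries, and their part was not tested. Bnip3l, a mitophagy receptor of maturing red blood cells, averaged 267 ± 72.9 CPM with ITA-LNP and 541 ± 134 CPM with control-LNP (SD, n = 3 and 4; adjusted p = 0.059, limma). Without replicate 2, Plod2, Vegfa, P4ha1 and Bnip3 were higher and Bnip3l was lower, 4 and 1 of 10 beside 15.4% and 16.0% of all genes.

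In the pentose phosphate pathway, 1 of 7 tested genes was lower and 0 were higher (limma, and voom), near the 15.5% of all genes called in either direction, with a median log2 fold change of -0.64. This was Taldo1, transaldolase, at 27.1, 57.2 and 82.0 CPM with ITA-LNP and 339, 608, 319 and 317 CPM with control-LNP, which fell by 2.89 ± 0.48 (SE; adjusted p = 0.0029, limma). Its groups stood apart with and without replicate 2. G6pdx, the entry enzyme of that pathway, had 19.5, 21.1 and 0.137 CPM with ITA-LNP and 17.1, 229, 21.0 and 18.0 CPM with control-LNP, so replicate 2 alone was high. Among 14 genes that set fructose 2,6-bisphosphate and the fate of pyruvate, 0 of 13 tested were called by limma or voom with all 7 libraries. Over all genes limma called 15.5% and voom 14.0%. The median log2 fold change of the list was 0.39. An unadjusted p under 0.05 by limma was found for 1 of the 13, beside 29.3% of all genes. That gene, Pdk1, a kinase that keeps pyruvate out of mitochondria, had 53.6, 57.6 and 38.2 CPM with ITA-LNP and 128, 68.8, 115 and 126 CPM with control-LNP (adjusted p = 0.159, limma). Without replicate 2, Pdk1 was lower and Mpc1, a subunit of the mitochondrial pyruvate carrier, was higher. This was 1 of 14 tested genes each way, beside 16.0% lower and 15.4% higher over all genes. For glycogen metabolism 0 of 8 and for gluconeogenesis 0 of 3 tested genes were called, by limma or voom and with 0 at an unadjusted p under 0.05. Over all genes these shares were 15.5% by limma, 14.0% by voom and 29.3% unadjusted. The glycogen and gluconeogenesis lists had median log2 fold changes of 0.30 and 1.10. Fbp1 and G6pc, enzymes that glucose-making tissue needs, were at 0 in all 7 libraries, and so was Fbp2.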

How the data were processed

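RNA was measured in whole abdominal aorta by QuantSeq 3′ sequencing of 500 ng total RNA, per the labels' protocols. The genome build was mm10, per the submitters' processing notes. Which aligner, counter, annotation and strand setting made the counts is not given in the sources used here. There is 1 table, deposited by the authors on a log10 scale. Taken as log10(CPM + 1), each column sums to 1000000 CPM, and 100% of the CPM came out as whole reads within 0.01. These reads gave the depths of 5077073 to 7281721 and were used for counting intervals and for voom.

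Groups and replicate numbers came from the titles. Levels were converted to log2(CPM + 1), and 12636 genes with a mean of at least 1 were fitted with limma-trend (limma 3.58.1, R 4.3.3) on all 7 libraries, ITA-LNP over control-LNP, with Benjamini-Hochberg adjustment over all of them and a threshold of 0.05. This scale understates the change of low genes. Shares of isoenzyme families were set against each other by exact permutation of the group labels, two-sided, with 35 splits. Coordinates came from GENCODE M21 on mm10, and near-identical genes were sought with the last 500 bases of each transcript at 95% identity over at least 100 bases. Promoters were read from RefSeq.

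The 10 genes, the other lists and the markers were chosen with earlier results of these data known. The text names all 10, at most the 4 tested genes of smallest p of each other list, the isoenzyme partners and the 5 genes closest to the mean of the 10. Other genes of the lists were named after their values were seen, where a count without control-LNP replicate 2 or a 0 needed them. Some listed genes are not reported here, though they count in their list and in the tests. Alternatives were other filters, pseudocounts and scalings, voom, library weights, a replicate block, reads summed over Pgk1 and its copy, and leaving out each library. Software was pandas 2.3.3, scipy 1.17.1, matplotlib 3.10.9 and numpy 2.4.6, run in Python 3.11.15.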

Additional observations from a re-analysis of the deposited data

Results flagged for a closer look

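In 6 of 16 sets of control-LNP values examined, replicate 2 lay farther from the other 3 control-LNP libraries than Dixon's 95% limit for 4 samples allows. For a single set of values, chance alone does this in about 1 in 20. The 16 sets come from the same 4 libraries and are not independent, so 6 of 16 cannot be set against that rate. It was high for Slc2a1 at 146 CPM, Gapdh at 956 CPM, Pgk1 at 160.3 CPM, Eno1 at 159 CPM and Ldha at 269 CPM. Its share of Slc2a1 among the Slc2a1 and Slc2a3 reads, 51.5%, was also apart from the 10.2% to 14.5% of the other control-LNP libraries. The same library was low for Hk2, at 1.79 CPM, and for Pfkl, at 0.150 CPM, and had the highest neutrophil marker sum, 25998 CPM. The part of those markers in its values was not tested.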

How the results depend on the processing

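The 1957 genes that changed became 3015 with quantile normalization, 4343 with library weights, 1060 with a replicate block, 4325 with median centring and 3764 with voom, both without control-LNP replicate 2, and 1387 to 4053 when 1 library was left out. Leaving out replicate 2 gave 4053. Of the 10 genes, 0 were called with all 7 libraries, 1 with a filter at a mean of 2 (Pkm), 2 with quantile normalization (Pgk1 and Pkm), 4 with library weights, 4 with median centring and 5 with voom, both without replicate 2, and 0 to 4 with 1 library left out, where leaving out the first ITA-LNP library called Pgk1. The deviations of same-numbered libraries from their group means correlated at 0.0053, -0.0105 and -0.0173. These values do not settle whether the replicate numbers pair the libraries. The block called 0 of the 10 genes. The sign of Pfkl turned to -0.85 with median centring, -0.28 with quantile normalization, -0.56 with weights, -0.95 with median centring and -0.81 with voom, both without replicate 2, and ranged from -0.71 to 0.89 with 1 library left out. Aldoa turned to -1.02 with median centring and -0.062 with quantile normalization (-0.085 to 0.25 with 1 library left out), Gapdh to -0.75 and Ldha to -0.30 with median centring, which also left Slc2a1 at 0.080 and Hk1 at -2.18, and Eno1 ranged from -0.99 to 0.054 with 1 library left out. Median centring moved the median of all genes to -0.98. The difference in share, in percentage points, ranged with 1 library left out from 67.1 to 80.8 for Slc2a1, 27.9 to 46.3 for Hk2, -8.37 to -2.40 for Pfkl, -7.95 to 2.20 for Aldoa, -9.20 to 12.6 for Eno1 and -4.40 to 2.90 for Ldha. It was -2.25 for Eno1 with the block and -6.85 for Ldha with pooled reads. With 1 library left out these tests cannot go below an exact permutation p of 0.0667 or 0.1. The causes were not tested.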
